A study of Homo sapiens with 6 samples.

Results

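Non-coding genes at the loci of glycolysis genes, 8 in all, were followed in U-2OS cells, a human osteosarcoma line, after an siRNA against SFPQ. They were taken by name or identifier, as 8 of the 35036 genes in a deposited count table that holds mostly non-coding genes. The SiSFPQ group had 3 libraries transfected with the siRNA against SFPQ, and the SiCtrl group had 3 libraries with a control siRNA. Both groups received actinomycin D, which blocks transcription, and no untreated cells were among the samples. A difference in level before the drug and a difference in loss of RNA after it therefore cannot be told apart. The sources used here do not give its dose or duration. Per the labels' protocols, the libraries were stranded and poly(A)-selected. Separate cultures are not named in the labels, so the p-values rest on a spread between libraries that may be technical.

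Glycolysis splits glucose into pyruvate in the cytosol. Glucose enters through carriers such as SLC2A1 (GLUT1), is trapped by hexokinases such as HK2, cleaved by aldolases such as ALDOC, oxidised by GAPDH, and converted to pyruvate by enolase (ENO1) and pyruvate kinase (PKM). Tumour cells commonly run this pathway at a high rate. Non-coding genes at such loci are of several kinds. Antisense genes lie on the opposite strand over a coding gene, and divergent transcripts (DT) start beside its promoter and run the other way. SFPQ is a nuclear RNA-binding protein of paraspeckles that takes part in transcription and RNA processing.

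The table's totals were 1298658 to 1599566 counts in SiSFPQ libraries and 1385532 to 1533974 counts in SiCtrl libraries. These totals cover the table alone and are not the sequencing depth. SFPQ and the coding glycolysis genes were not analysed here, so neither the knockdown nor the coding partners were checked, and markers of the cell line were not checked either. MALAT1 and TALAM1, which lie over each other on opposite strands, held 72563 and 72552 counts in total, so the counting did not keep strands apart there. Each count below can therefore hold reads of the coding partner. In bulk RNA, a change in RNA per cell and a change in the share of cells that carry it cannot be told apart.

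All 8 genes overlap the span of their coding partner in GENCODE release 29 on GRCh38, and 7 of the 8 lie on the strand opposite to it. Positions are those listed in the table. ENSG00000269968 (chromosome 12, 6537794 to 6538370) lies over the last exons of GAPDH, ending 4 bases inside the gene's far end. In GENCODE 29, 422 of its 422 exonic bases fall in GAPDH exons. ALDOC-AS1 (ENSG00000265168, chromosome 17, 28573117 to 28574243) lies likewise at the far end of ALDOC, with 296 of 298 exonic bases in ALDOC exons. These are the closest overlaps with coding exons among the genes with GENCODE 29 models.

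ENSG00000303314 (chromosome 15, 72178353 to 72210040) runs across the far end of PKM, and its listed span holds 6454 exonic bases of PKM. ENSG00000309281 (chromosome 2, 74885333 to 74958928) runs across the far end of HK2, with 3333 exonic bases of HK2 in its span. GENCODE 29 has no model for either identifier, so their own exons could not be set against those of the partner. Their spans also reach exons of GRAMD2A and of POLE4.

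The other 4 lie at promoters. HK2-DT (ENSG00000272711, chromosome 2, 74832655 to 74833987) shares 7 bases with HK2 exons. SLC2A1-DT (ENSG00000227533, chromosome 1, 42959028 to 42996814) shares 128 of 3364 GENCODE 29 exonic bases with SLC2A1 exons. ENSG00000283973 (chromosome 1, 42959065 to 42962203) is on the strand of SLC2A1, just upstream of it, and shares 112 of 852 exonic bases. Its whole listed span lies inside that of SLC2A1-DT, and the exons of both share 268 bases. ENO1-AS1 (ENSG00000230679, chromosome 1, 8878464 to 8879873) lies across the start of ENO1. In GENCODE 29, 126 of its 456 exonic bases fall in ENO1 exons, but its listed exonic length is longer, at 1057 bases. Listed exonic lengths also exceed GENCODE 29 for SLC2A1-DT (4611 bases), ENSG00000283973 (1304) and ENSG00000269968 (483). For these genes the shares describe the GENCODE 29 models and not the listed exons. Among the 6 genes with GENCODE 29 models, HK2-DT and the SLC2A1 pair had the smallest shares of exonic bases in the partner's exons. By listed span instead, exons of the partner covered 47.6% of ENO1-AS1, against 20.4% of ENSG00000303314 and 4.53% of ENSG00000309281.

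**Figure D1:**
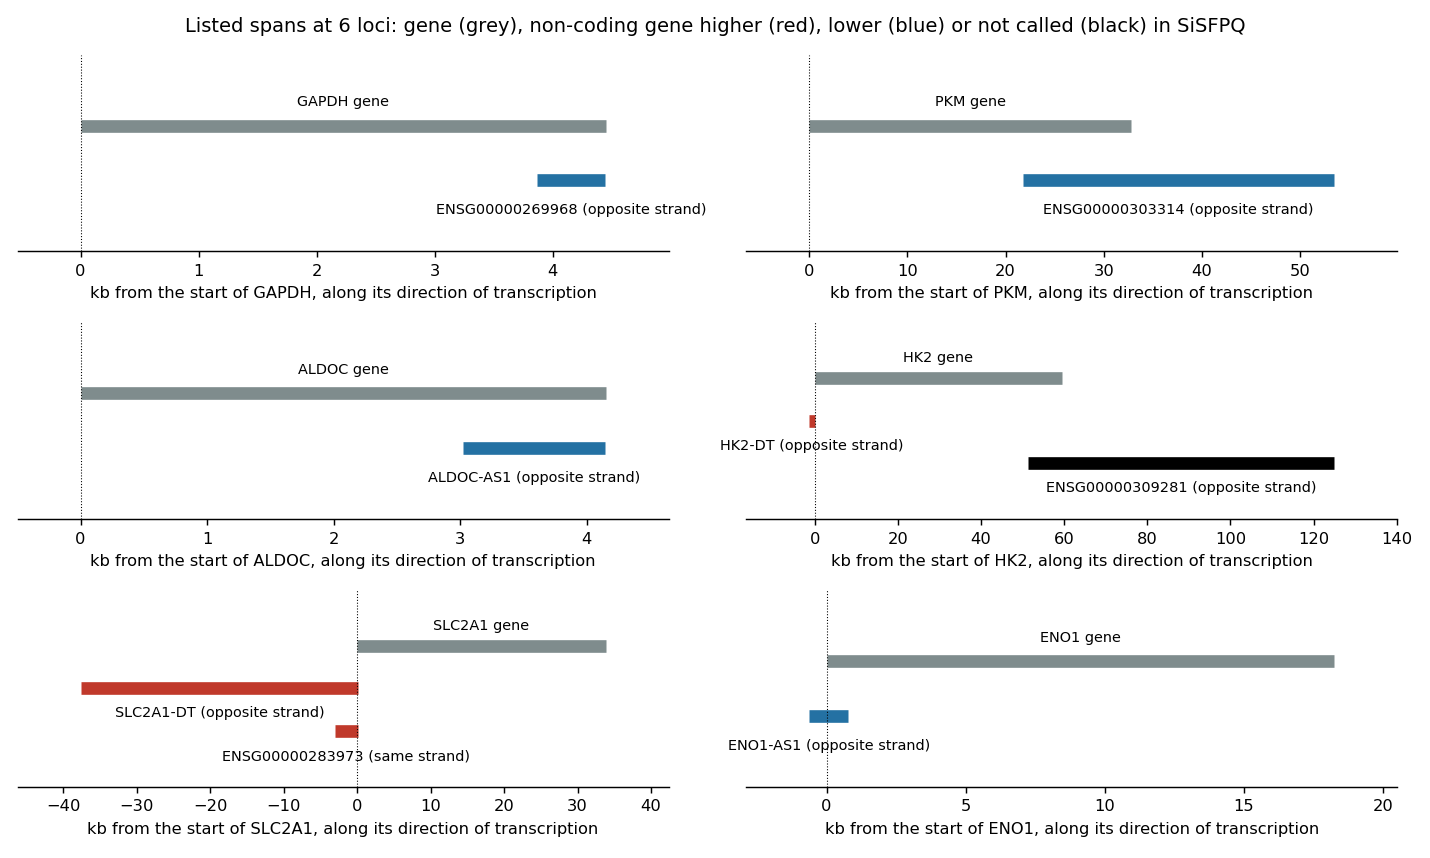
Listed spans of the 8 non-coding genes beside the coding gene at each of 6 loci, in kb from the start of the coding gene along its own direction (GENCODE 29). Colour gives the call of the edgeR test in SiSFPQ over SiCtrl; the 3 higher genes lie at the starts of HK2 and SLC2A1, and of the 4 lower genes 3 lie at far ends and 1, ENO1-AS1, at a start.

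RefSeq promoter windows (GRCh38.p14, from 250 bases before to 50 after the start) were found for 3 of the 8 genes, and all 3 are shown because each holds the start of the coding partner as well. Letters run 5′ to 3′ on the strand of the non-coding gene. Capitals mark matches on either strand to GCGTG and ACGTG, cores of the hypoxia response element, to CACGTG, the E-box, and to TATAAA.
HK2-DT: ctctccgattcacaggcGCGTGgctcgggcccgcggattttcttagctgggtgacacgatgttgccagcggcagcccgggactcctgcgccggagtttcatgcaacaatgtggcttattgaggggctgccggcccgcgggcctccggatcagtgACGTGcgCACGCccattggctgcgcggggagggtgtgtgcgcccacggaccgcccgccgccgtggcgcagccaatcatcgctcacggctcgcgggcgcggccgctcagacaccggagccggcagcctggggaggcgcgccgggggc
SLC2A1-DT: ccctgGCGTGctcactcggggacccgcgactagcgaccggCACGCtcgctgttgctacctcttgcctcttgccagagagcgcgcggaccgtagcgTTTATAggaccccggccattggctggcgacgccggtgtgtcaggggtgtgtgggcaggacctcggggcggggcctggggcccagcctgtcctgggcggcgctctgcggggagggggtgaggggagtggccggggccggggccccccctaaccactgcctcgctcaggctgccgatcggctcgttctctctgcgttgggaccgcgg
ENO1-AS1: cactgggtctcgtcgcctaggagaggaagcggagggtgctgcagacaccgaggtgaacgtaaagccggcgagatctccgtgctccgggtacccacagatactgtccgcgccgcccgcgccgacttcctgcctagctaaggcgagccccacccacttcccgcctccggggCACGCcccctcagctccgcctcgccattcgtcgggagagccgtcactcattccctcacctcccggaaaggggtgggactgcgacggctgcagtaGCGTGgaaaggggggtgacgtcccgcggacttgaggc

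The HK2-DT window is chr2:74833938-74834237 on the minus strand, and HK2 starts at position 111 of it, 140 bases from the start of HK2-DT. The SLC2A1-DT window is chr1:42958799-42959098 on the plus strand, and SLC2A1 starts at position 70, 181 bases from the start of SLC2A1-DT. The ENO1-AS1 window is chr1:8878585-8878884 on the plus strand, with ENO1 starting at position 102, 149 bases from the start of ENO1-AS1. In RefSeq, all 3 pairs therefore start close together and run away from each other. The listed span of ENO1-AS1 differs from this arrangement. It begins 222 bases on the ENO1 side of the RefSeq start of ENO1, so it takes in the first bases of ENO1 as RefSeq places them.

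GCGTG was matched 2 times in each of the 3 windows, and 36.5% of 35116 RefSeq windows of the same length hold it at least 1 time. The shares given here count windows with at least 1 match and were not matched for GC content. ACGTG was matched in the HK2-DT window alone among the 3 (21.4% of all windows) and TATAAA in the SLC2A1-DT window alone (11.5%). CACGTG, which contains ACGTG, was matched in none of them (7.26% of all windows). The windows had a GC content of 71.7% for HK2-DT, 72.3% for SLC2A1-DT and 67.7% for ENO1-AS1, against a median of 58.7% over all windows. The matches describe the letters of these windows and do not show a site in use.

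Levels were compared per length, as CPM per kb of listed exonic length, where CPM is the count relative to the table's own total (per 1e6 counts) after TMM scaling. In SiSFPQ cells the order from low to high was SLC2A1-DT, ENSG00000283973, HK2-DT, ENSG00000309281, ALDOC-AS1, ENO1-AS1, ENSG00000303314 and ENSG00000269968, and SiCtrl cells gave the same order. The lowest, SLC2A1-DT, had 9.25 ± 0.561 CPM per kb in SiSFPQ and 5.12 ± 1.19 CPM per kb in SiCtrl (SD, n = 3 each). The highest, ENSG00000269968 over GAPDH, had 91801 ± 1944 CPM per kb in SiSFPQ and 118168 ± 676 CPM per kb in SiCtrl. In SiSFPQ, the ranges of mean ± SD of ENSG00000283973 (14.3 ± 2.95 CPM per kb) and HK2-DT (20.6 ± 5.23) overlapped. In SiCtrl, those of the neighbours SLC2A1-DT and ENSG00000283973 (6.98 ± 1.98 CPM per kb) overlapped, as did those of ENSG00000283973 and HK2-DT (10.1 ± 2.52). Within each library, however, these pairs kept the order given above, and their differences in level were not tested.

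SiSFPQ was compared with SiCtrl to ask how the levels of these genes under actinomycin D differed with the siRNA against SFPQ. Rose and fell below mean higher and lower in SiSFPQ than in SiCtrl. All 8 passed the filter on low counts, and 7 of the 8 were called by the edgeR quasi-likelihood test at an adjusted p under 0.05. Over the whole table, 48.4% of 6325 tested genes were called. HK2-DT, SLC2A1-DT and ENSG00000283973, which are 3 of the 4 at promoters, were higher in SiSFPQ (3 of 8, against 24.5% of all tested genes). ENSG00000269968, ENSG00000303314, ALDOC-AS1 and ENO1-AS1, the last also at a promoter, were lower (4 of 8, against 24.0% of all tested genes). The CPM of the 2 groups did not overlap for any of the 8, which held for 54.0% of all tested genes. The median log2 fold change was -0.26 over the 8 genes and 0.01 over all tested genes.

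**Figure D2:**
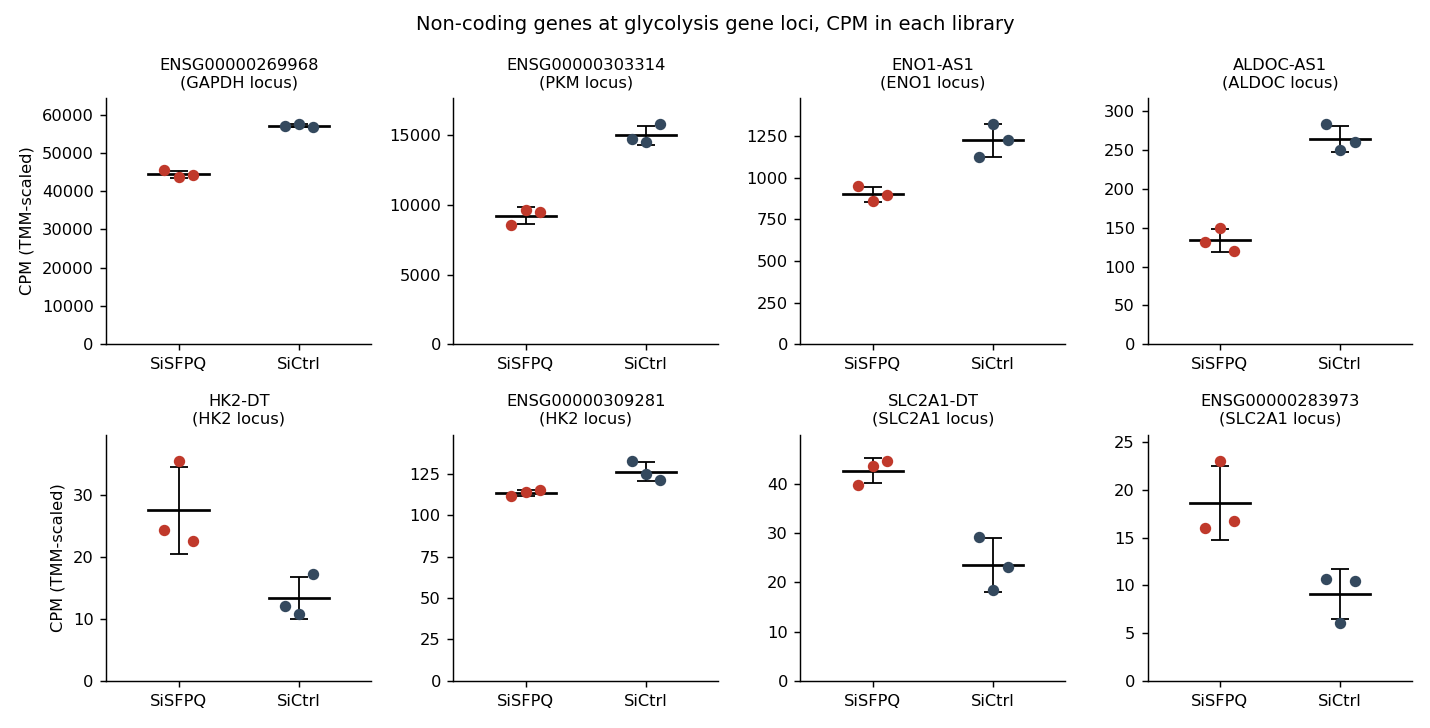
CPM (TMM-scaled) of the 8 genes in each library, SiSFPQ in red and SiCtrl in dark blue; bars show the mean and SD of 3 libraries, and each vertical axis starts at 0. The genes at the GAPDH, PKM, ENO1 and ALDOC loci lay lower in every SiSFPQ library, and HK2-DT, SLC2A1-DT and ENSG00000283973 lay higher.

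At SLC2A1, which encodes the main glucose carrier of many cell types, both non-coding genes rose. SLC2A1-DT had 52, 70 and 69 counts in the SiSFPQ libraries, against 41, 27 and 31 counts in the SiCtrl libraries. After scaling these were 39.7, 43.6 and 44.6 CPM in SiSFPQ and 29.3, 18.3 and 23.2 CPM in SiCtrl. All SiSFPQ libraries lay close together and above every SiCtrl library. The log2 fold change was 0.86 ± 0.19 (SE, adjusted p = 1.69e-05, edgeR).

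ENSG00000283973 had 21, 37 and 26 counts in SiSFPQ, against 15, 9 and 14 counts in SiCtrl. Its level was 16.0, 23.0 and 16.8 CPM in SiSFPQ and 10.7, 6.11 and 10.5 CPM in SiCtrl. The groups did not overlap, with SiSFPQ replicate 2 the highest and SiCtrl replicate 2 the lowest. The log2 fold change was 1.05 ± 0.28 (SE, adjusted p = 6.42e-04, edgeR). DESeq2 did not call it (log2 fold change 1.04, adjusted p = 0.0668), and the adjusted p ran from 2.75e-04 to 0.0668 over all alternatives. Because its span lies within that of SLC2A1-DT, the 2 rises may rest in part on the same reads and are not 2 independent observations.

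The ratio of SLC2A1-DT to ENSG00000283973 in each library does not depend on the scaling. Its log2 value averaged 1.197 ± 0.25 in SiSFPQ and 1.36 ± 0.21 in SiCtrl (SD, n = 3 each), with a difference of -0.16 (two-sided exact permutation test, p = 0.5). The ratios of the 2 groups overlapped. The difference ran from -0.28 without SiCtrl replicate 3 and -0.26 without SiSFPQ replicate 3 to -0.07 without SiCtrl replicate 2 and -0.02 without SiSFPQ replicate 2, and was -0.03 with a pseudocount of 5. Another listed gene at the locus, ENSG00000288955, lies over the far end of SLC2A1. It had 6, 8 and 4 counts in SiSFPQ and 12, 11 and 9 counts in SiCtrl, too few for the filter, and it was not called without a filter (log2 fold change -0.91, adjusted p = 0.185, edgeR).

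At HK2, which encodes the hexokinase that traps glucose in many tumour cells, the genes at the 2 ends of the coding gene had fold changes of opposite sign. HK2-DT, at the start, had 32, 57 and 35 counts in SiSFPQ and 17, 16 and 23 counts in SiCtrl. Its level was 24.4, 35.5 and 22.6 CPM in SiSFPQ, against 12.1, 10.9 and 17.2 CPM in SiCtrl. The highest SiCtrl library, replicate 3, lay below the lowest SiSFPQ library. HK2-DT had a log2 fold change of 1.06 ± 0.23 (SE, adjusted p = 3.16e-05, edgeR).

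ENSG00000309281, over the far end of HK2, had 146, 183 and 178 counts in SiSFPQ and 186, 184 and 162 counts in SiCtrl. Its level was 111, 114 and 115 CPM in SiSFPQ and 133, 125 and 121 CPM in SiCtrl. The groups did not overlap, but the gap between them was small, and the gene was not called (log2 fold change -0.15 ± 0.10, SE; adjusted p = 0.196, edgeR). Exon overlap with HK2 was read from the listed span for this gene, so how many of its counts are HK2 reads is not known.

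The difference between the 2 HK2 genes was tested as the log2 ratio of HK2-DT to ENSG00000309281 in each library. It was -2.17, -1.67 and -2.33 in SiSFPQ, against -3.41, -3.48 and -2.79 in SiCtrl. Every SiSFPQ library had the higher ratio. The difference was 1.17 on the log2 scale, a 2.25-fold shift (two-sided exact permutation test, p = 0.1, the smallest p that 3 against 3 libraries allow; adjusted p = 0.167 over the 5 ratios tested by that permutation test). It was 0.98 without SiSFPQ replicate 2 and 1.39 without SiCtrl replicate 3.

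ALDOC-AS1 fell. It lies over the last exons of ALDOC, which encodes the aldolase isoform best known from brain. It had 172, 241 and 185 counts in SiSFPQ, against 397, 368 and 349 counts in SiCtrl. The level was 131, 150 and 120 CPM in SiSFPQ and 283, 250 and 261 CPM in SiCtrl. The groups stood well apart, with a log2 fold change of -0.98 ± 0.08 (SE, adjusted p = 4.25e-30, edgeR), the largest fall of the 8 genes. Of all tested genes, 12.9% had a larger absolute log2 fold change.

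ENSG00000269968, over the last exons of GAPDH, was the most abundant of all 6325 tested genes. GAPDH oxidises glyceraldehyde 3-phosphate and is widely used as a reference gene. The non-coding gene had 59430, 69928 and 68192 counts in SiSFPQ and 79863, 84534 and 75920 counts in SiCtrl. Its level was 45381, 43557 and 44082 CPM in SiSFPQ and 56991, 57436 and 56799 CPM in SiCtrl. Libraries of 1 group differed little, and the groups stood far apart. The log2 fold change was -0.36 ± 0.04 (SE, adjusted p = 2.95e-22, edgeR), so the mean CPM fell by 22.3%. Of all tested genes, 52.6% had a larger absolute log2 fold change.

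GAPDH-DT is a divergent transcript of the same locus (chromosome 12, 6525540 to 6533544). Its listed span stops 382 bases before the start of GAPDH. Its exons in GENCODE 29 overlap no coding exon. The listed span was not checked against coding exons, so reads of another coding gene may be counted. GAPDH-DT had 1789, 1753 and 1821 CPM in SiSFPQ, against 1744, 1731 and 1780 CPM in SiCtrl. The groups overlapped, and it was not called (log2 fold change 0.03 ± 0.05, SE; adjusted p = 0.636, edgeR). The log2 ratio of ENSG00000269968 to GAPDH-DT was 4.66, 4.63 and 4.60 in SiSFPQ and 5.03, 5.05 and 5.00 in SiCtrl. All 3 SiSFPQ ratios lay below all 3 SiCtrl ratios. The difference was -0.39 (two-sided exact permutation test, p = 0.1, the smallest possible; adjusted p = 0.167 over the 5 ratios). This ratio was chosen after its values were seen.

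ENO1-AS1, across the start of the enolase gene ENO1, also fell. It had 1243, 1382 and 1384 counts in SiSFPQ, against 1573, 1945 and 1643 counts in SiCtrl. The level was 949, 861 and 895 CPM in SiSFPQ and 1123, 1322 and 1229 CPM in SiCtrl. SiCtrl replicate 2 was the highest library, and no SiSFPQ library reached the SiCtrl range. The log2 fold change was -0.44 ± 0.05 (SE, adjusted p = 7.43e-17, edgeR). By its RefSeq start ENO1-AS1 is arranged like HK2-DT and SLC2A1-DT, whose promoters are printed above with its own, and its fold change had the opposite sign. Its listed span also covers more of the partner's exons, with 671 ENO1 exonic bases against 7 HK2 and 149 SLC2A1 exonic bases in the spans of HK2-DT and SLC2A1-DT. The part of this overlap in the result was not tested.

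ENSG00000303314, across the far end of PKM, ranked 8 in level among all tested genes. PKM encodes the pyruvate kinase of most proliferating cells, whose alternative exons give the M1 and M2 isoforms. The non-coding gene had 11196, 15533 and 14690 counts in SiSFPQ, against 20638, 21404 and 21117 counts in SiCtrl. The level was 8549, 9675 and 9496 CPM in SiSFPQ and 14727, 14543 and 15799 CPM in SiCtrl. SiSFPQ replicate 1 was the lowest library, and the groups stood far apart. The log2 fold change was -0.70 ± 0.04 (SE, adjusted p = 8.20e-68, edgeR), so the mean CPM fell by 38.5%. Among the alternatives the adjusted p ran up to 2.37e-04 (limma-voom). Counts per gene do not separate isoforms of PKM or reads of the non-coding gene from them.

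Over PKM the log2 fold change lay further from 0 than over GAPDH. The log2 ratio of ENSG00000303314 to ENSG00000269968 was -2.41, -2.17 and -2.21 in SiSFPQ, against -1.95, -1.98 and -1.85 in SiCtrl. The groups did not overlap, and the difference was -0.34 (two-sided exact permutation test, p = 0.1, the smallest possible; adjusted p = 0.167 over the 5 ratios). The log2 ratio of ENO1-AS1 to ENSG00000269968 averaged -5.62 ± 0.04 in SiSFPQ and -5.55 ± 0.11 in SiCtrl (SD, n = 3 each). The groups overlapped there, with a difference of -0.07 (two-sided exact permutation test, p = 0.4; adjusted p = 0.5 over the 5 ratios). It was -0.13 without SiCtrl replicate 1 (exact permutation p = 0.1, the smallest possible) and -0.02 without SiCtrl replicate 2.

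**Figure D3:**
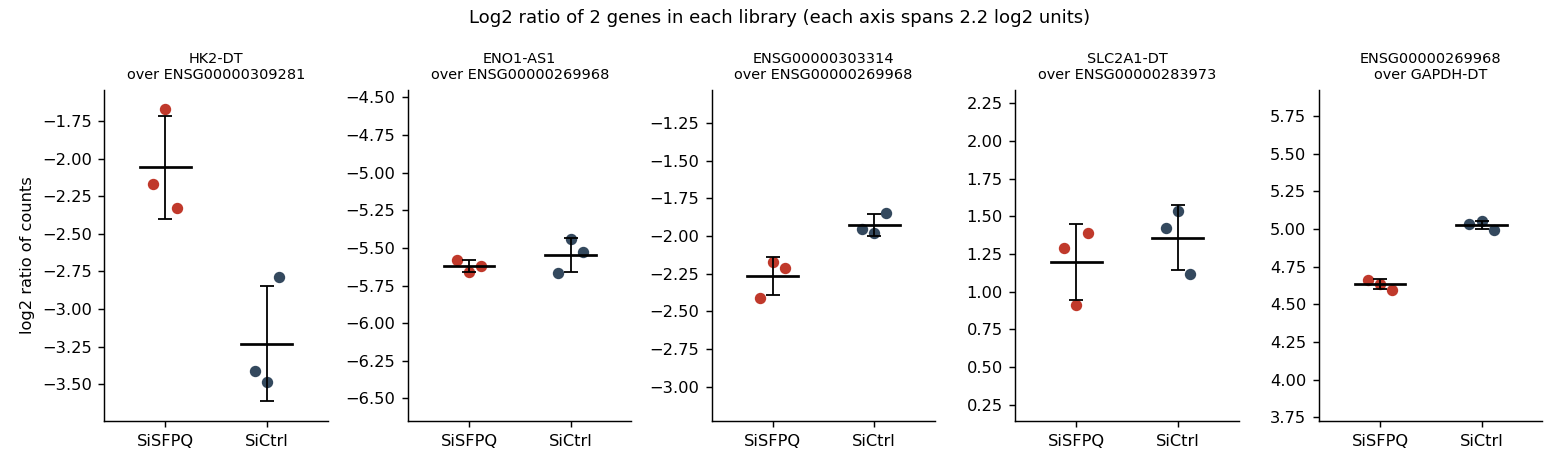
Log2 ratio of counts of 2 genes in each library for 5 pairs, SiSFPQ in red and SiCtrl in dark blue, with the mean and SD of 3 libraries; each vertical axis spans the same number of log2 units and does not start at 0. The groups do not overlap for HK2-DT over ENSG00000309281 (difference 1.17), ENSG00000303314 over ENSG00000269968 (-0.34) and ENSG00000269968 over GAPDH-DT (-0.39).

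Together the 8 genes took 5.57%, 5.47% and 5.48% of the table's counts in the SiSFPQ libraries, against 7.03%, 7.07% and 7.16% in the SiCtrl libraries. The genes over GAPDH and PKM made up 97.7 ± 0.0452% of these counts in SiSFPQ and 97.7 ± 0.0907% in SiCtrl (SD, n = 3 each), so the joint share describes those 2 genes. ENSG00000303314 took 0.862%, 0.971% and 0.9502% of counts in SiSFPQ and 1.41%, 1.40% and 1.52% in SiCtrl. Scaling from genes without coding exon overlap, which leaves both out of the scaling, gave log2 fold changes of -0.37 for ENSG00000269968 and -0.70 for ENSG00000303314.

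**Figure D4:**
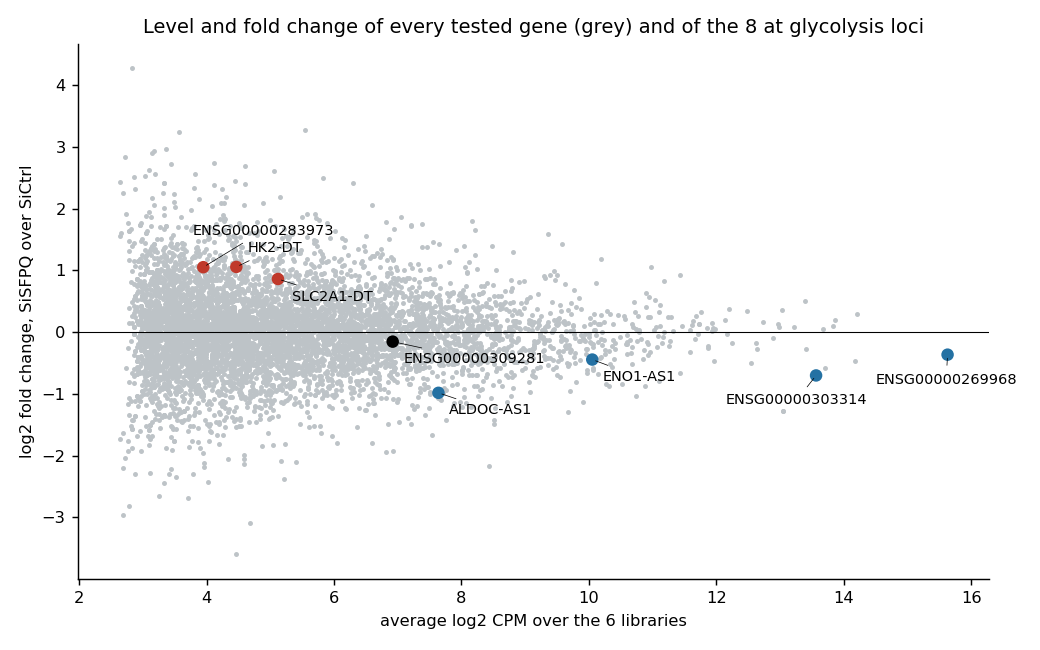
Average log2 CPM (horizontal) and log2 fold change in SiSFPQ over SiCtrl (vertical) of all 6325 tested genes in grey, with the 8 genes at glycolysis loci in red (higher), blue (lower) or black (not called). The 3 higher genes lie among the less abundant ones, and the 4 lower genes are more abundant than the other 4.

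Level and direction went together among the 8 genes. The 3 that rose had mean levels of 18.6 to 42.6 CPM in SiSFPQ and 9.10 to 23.6 CPM in SiCtrl, and the 4 that fell had 134 to 44340 CPM in SiSFPQ and 265 to 57075 CPM in SiCtrl. Across the 6 libraries, Pearson's r of log2 CPM was 0.87 to 0.97 between any 2 of the 4 genes that fell and 0.84 to 0.95 between any 2 of the 3 that rose. These correlations share the difference between the groups and are a description of 6 libraries.

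The genes most like each of the 8 were sought among 5235 others with a mean of at least 10 CPM, by Pearson's r of log2 CPM over the 6 libraries. ENSG00000269968 was most like RPSAP52 and LOXL2-AS1 (r = 1.00 and 0.999), and ENSG00000303314 was most like ENSG00000307033 and ENSG00000291072 (both r = 0.999). ENO1-AS1 was most like ENSG00000258892 and MAGEA8-AS1 (r = 0.996 and 0.994), and ALDOC-AS1 was most like HHIP-AS1 and ENSG00000273558 (r = 0.998 and 0.997). The number of genes with r over 0.95 ran from 159 for ENO1-AS1 to 507 for ENSG00000269968 among the 4 genes that fell.

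Among the other 4 genes it ran from 53 for HK2-DT to 134 for SLC2A1-DT. SLC2A1-DT was most like ENSG00000287972 and ENSG00000302302 (r = 0.997 and 0.996), and ENSG00000283973 was most like ENSG00000257086 and FAUP4 (r = 0.996 and 0.995). HK2-DT was most like ENSG00000287581 and ENSG00000289691 (r = 0.993 and 0.991), and ENSG00000309281 was most like ENSG00000307372 and PAXBP1-AS1 (r = 0.993 and 0.992). The 6 genes found for the 3 that rose had log2 fold changes of 0.41 to 1.36. Over these libraries r shares the difference between the groups, so the sign of these fold changes follows from how the genes were picked.

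A list of 53 genes of glycolytic enzymes, glucose and lactate carriers and their regulators gave 24 further non-coding genes at these loci. The filter on low counts left 12 of the 24, of which 2 rose, 5 fell and 5 were not called, so 7 of 12 were called, against 48.4% of all tested genes. Their median log2 fold change was -0.17, against 0.01 over all tested genes. At PFKP, which encodes a phosphofructokinase, both tested genes fell. ENSG00000306702 averaged 98.3 ± 13.2 CPM in SiSFPQ and 145 ± 18.8 CPM in SiCtrl (SD, n = 3 each; log2 fold change -0.56, adjusted p = 1.68e-07, edgeR). ENSG00000278419 averaged 94.1 ± 11.1 CPM in SiSFPQ and 135 ± 19.0 CPM in SiCtrl (log2 fold change -0.52, adjusted p = 1.74e-06, edgeR).

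The largest falls were at HIF1A, which encodes the hypoxia-inducible factor that activates many glycolysis genes. HIF1A-AS3 had 296, 266 and 300 CPM in SiSFPQ, against 623, 567 and 580 CPM in SiCtrl (log2 fold change -1.04 ± 0.06, SE; adjusted p = 3.47e-56, edgeR). Its exons in GENCODE 29 overlap no coding exon. The listed span of HIF1A-AS3 was not checked against coding exons, so its counts may hold coding reads. ENSG00000258964, over exons of HIF1A and SNAPC1, had 580, 484 and 651 CPM in SiSFPQ and 1192, 1041 and 1076 CPM in SiCtrl (log2 fold change -0.95 ± 0.05, SE; adjusted p = 1.30e-63, edgeR). Neither pair of groups overlapped. For ENSG00000258964 the adjusted p ran up to 6.45e-09 among the alternatives (edgeR without SiCtrl replicate 3). The listed spans of the 2 genes overlap each other, so they may share reads.

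ENSG00000274904 lies over exons of the aldolase gene ALDOA and of AC093512.2. It averaged 434 ± 14.2 CPM in SiSFPQ and 487 ± 7.72 CPM in SiCtrl (log2 fold change -0.17, adjusted p = 0.0175, edgeR). Its call was lost with plain totals (adjusted p = 0.162), in DESeq2 (0.0942), without SiSFPQ replicate 2 (0.0671) and without SiSFPQ replicate 3 (0.0693), over a range of 0.0124 to 0.162 among the alternatives. The 2 genes that rose were SLC16A1-AS1, at a lactate carrier gene, and TMEM147-AS1, over exons of GAPDHS, the sperm form of GAPDH, and of TMEM147. SLC16A1-AS1 averaged 177 ± 5.28 CPM in SiSFPQ and 130 ± 5.51 CPM in SiCtrl (log2 fold change 0.44, adjusted p = 5.73e-06, edgeR). TMEM147-AS1 averaged 435 ± 2.65 CPM in SiSFPQ and 337 ± 4.75 CPM in SiCtrl (log2 fold change 0.37, adjusted p = 1.39e-07, edgeR).

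Besides GAPDH-DT, the genes not called each overlap exons of a further coding gene as well. They were ENSG00000293728 over ENO2 and ATN1 (log2 fold change -0.06) and ENSG00000239775 over PGAM2 and DBNL (-0.17). The others were ENSG00000293258 over PGK1 and ATP7A (0.13) and ENSG00000286856 over SLC2A2 and TNIK (-0.69). For ENSG00000293728, ENSG00000293258 and ENSG00000286856 the overlap was read from the listed span. ENSG00000286856 had 6.87, 7.47 and 8.40 CPM in SiSFPQ, against 14.3, 16.3 and 5.99 CPM in SiCtrl, and was called without SiCtrl replicate 3 (log2 fold change -1.01, adjusted p = 0.0078, edgeR). Without SiCtrl replicate 2 its log2 fold change was -0.44 and it was not called (adjusted p = 0.378, edgeR). With 1 library left out, the log2 fold change ran from -0.28 (without SiCtrl replicate 1) to -0.09 (without SiSFPQ replicate 3) for ENSG00000239775. For ENSG00000293728 it ran from -0.11 (without SiCtrl replicate 2) to -0.03 (without SiCtrl replicate 3), and neither gene was called in any of these fits. ENSG00000293258 ran from -0.0028 without SiSFPQ replicate 1 to 0.26 without SiSFPQ replicate 2, with no call in any of these fits.

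**Figure D5:**
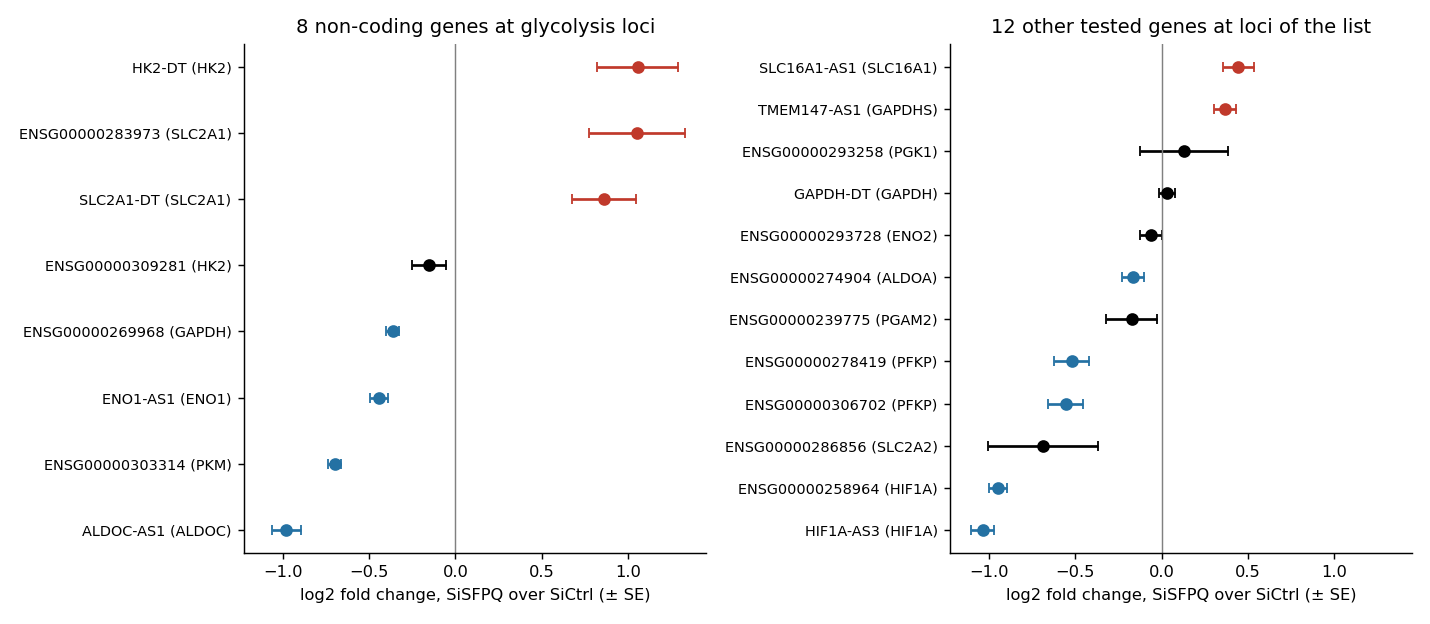
Log2 fold change in SiSFPQ over SiCtrl with its SE for the 8 genes (left) and for 12 other tested non-coding genes at loci of the list (right), each with its locus; red is higher, blue lower and black not called. The 8 genes run from -0.98 for ALDOC-AS1 to 1.06 for HK2-DT, and the 12 others run from -1.04 for HIF1A-AS3 to 0.44 for SLC16A1-AS1.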

How the data were processed

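The authors deposited unnormalised read counts for each gene, beside its position and exonic length. Neither the aligner and counter nor the annotation and build are named in the labels or the header. Of 13886 identifiers shared with GENCODE release 29 (GRCh38), 13874 overlapped the position there, so positions were read as GRCh38.

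Differential expression was tested over the whole table with edgeR 4.0.16 (R 4.3.3), as SiSFPQ over SiCtrl, by two-sided robust quasi-likelihood tests after filterByExpr and TMM scaling, with Benjamini-Hochberg adjustment. On simulated counts for this comparison over 6079 genes, the fit recovered 93 of 100 genes planted at a log2 fold of 1 and 60 of 100 at 0.5. It called 5 of the 5879 unchanged ones. Genes with low expected counts were given no change, and every gene had the same dispersion. Far fewer genes were changed than were called in the real data, so these rates may not hold there. Ratios of 2 genes used counts plus 0.5. Promoter sequences are from RefSeq.

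Libraries of 1 group differed beyond counting noise (chi-square per degree of freedom 1.24 to 1.40), so none was counted as 1 library deposited again; whether they share a culture is not known. The 8 genes, the list and the tests were chosen with earlier results of these data known. Named were the 8 genes, other tested genes at loci of the list, and the 2 most like each of the 8; low-count genes were named after their values were seen. Alternatives were RLE, upper-quartile and plain scaling, scaling from genes without coding exon overlap, other filters, DESeq2 1.42.0, limma-voom (limma 3.58.1), a replicate block, another pseudocount and leaving out each library.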

Additional observations from a re-analysis of the deposited data

How the results depend on the processing

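For the 8 genes, direction and call were the same in 119 of 120 comparisons with an alternative, and 0 reversed. The exception was ENSG00000283973, no longer called in DESeq2 (log2 fold change 1.04, adjusted p = 0.0668). All of 35 values of the 5 ratios kept their direction. DESeq2 called 858 of all genes higher and 904 lower, against 1547 and 1516 in edgeR; the cause was not tested. Of the 24 further genes at glycolysis loci, 2 were higher and 5 lower in the main analysis. With no filter 4 were higher and with at least 1 CPM in 3 libraries 5, since more low-count genes were tested. Of those 5, ENSG00000231748 passed that filter through the SiSFPQ libraries alone. Taken by name alone, 1 was higher and 1 lower, since fewer genes were tested. ENSG00000293728 turned to 0.0038 with plain totals and ENSG00000293258 to -0.0028 without SiSFPQ replicate 1, neither called; with a library left out ENSG00000293258 ran from -0.0028 to 0.26. Plain totals moved the median log2 fold change of all genes to 0.07.

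With a library left out, the counts were 1382 to 1464 higher and 1378 to 1440 lower over all genes, and 3 higher and 4 lower among the 8. Deviations of libraries of the same replicate number correlated at -0.0047, 0.00097 and 0.010, so no effect shared by replicate number was seen. Whether the samples were paired is not known. With the replicate block, 1535 genes were higher and 1515 lower, and it changed no call among the 8 (3 higher and 4 lower). Low counts limit HK2-DT, SLC2A1-DT and ENSG00000283973 most.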

Other observations

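Of the 12 further genes at glycolysis loci that the filter removed, 4 are given here, picked after their values were seen. ENSG00000263342 lies over SLC2A4, the insulin-responsive glucose carrier of muscle and fat. It had 10, 11 and 7 counts in SiSFPQ and 5, 2 and 2 counts in SiCtrl. It was called higher by edgeR with no filter (log2 fold change 1.51, adjusted p = 0.0367) and with at least 1 CPM in 3 libraries (1.51, adjusted p = 0.0158). ENSG00000231748, over the hexokinase-like gene HKDC1, had 2, 3 and 2 counts in SiSFPQ and 0, 0 and 0 counts in SiCtrl. It was not called with no filter (adjusted p = 0.0650, edgeR) and was called higher with at least 1 CPM in 3 libraries (adjusted p = 0.0306). It passed that filter through the SiSFPQ libraries alone, so the filter fixed the direction and the call is no support for a rise. PDK4-AS1, at a pyruvate dehydrogenase kinase gene, had 3, 7 and 12 counts in SiSFPQ and 3, 3 and 4 counts in SiCtrl, so its groups overlapped, and neither setting called it (adjusted p = 0.287 and 0.152, edgeR). ENSG00000288955, over SLC2A1, ran the other way without overlap, with 18 counts in SiSFPQ and 32 counts in SiCtrl in total, and neither setting called it (adjusted p = 0.185 and 0.0959, edgeR).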
